A study of Mus musculus with 30 samples.

Results

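The cell cycle was followed in mouse liver through 39 genes that cells need to enter the cycle, copy their DNA and divide. A gene's level was taken from the probe set annotated to that gene alone, and where a gene had several such probe sets, from the one with the highest mean over all 30 arrays. Of the 39 genes, 38 had such a probe set, out of 18193 genes on the array. Ccnb1, which encodes cyclin B1, had none and is not analysed here.

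The livers came from adult male mice of a C57BL/6J background that were wild type (WT), were humanised for the receptors CAR and PXR (hCAR/hPXR), lacked both receptors (CARko/PXRko) or lacked PXR alone (PXRko). Both receptors are nuclear proteins that sense drugs and other foreign compounds and switch on the enzymes that clear them, and CAR activators are also known to set off hepatocyte proliferation in mice. Daily gavage delivered corn oil, 1,4-dichlorobenzene (DCB, a chlorinated benzene used in moth repellents) at 600 mg/kg or CPA (cyproterone acetate, a steroid that blocks androgen receptors) at 160 mg/kg. PXRko mice were given corn oil only. Each of the 10 groups had 3 arrays.

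Treatment was labelled as 3 days in all groups but the CPA-treated WT and hCAR/hPXR mice, which were labelled 6 days; the protocol describes 3 days for all, with the mice killed one day later. By the labels, CPA in WT and hCAR/hPXR mice is therefore compared with 3-day corn oil and 3-day DCB, and compound and duration cannot be told apart there. The labels do not say how the human receptors were introduced, which cells express them, or that each array is a separate mouse, so the p-values reflect how far these samples spread, which may be technical. Values are log2 signals, a step of 1 being a doubling, with a final 0 dropped, and are listed for replicates 1, 2 and 3. Differences are log2 differences ± SE with 3 arrays per group, and adjusted p-values come from limma, corrected by Benjamini-Hochberg over the 12795 genes tested in a comparison.

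A cell enters the cycle when mitogens raise cyclin D1, which with its kinase partners releases the transcription factor E2F from the retinoblastoma protein. E2F then switches on the genes of replication: CDT1 and CDC6 load the ring of MCM2 to MCM7 onto DNA as the helicase, ribonucleotide reductase (RRM1 with RRM2), thymidylate synthase and thymidine kinase supply nucleotides, and PCNA clamps the polymerase to its template. The genes of mitosis come on later, under a complex that binds the CHR element of their promoters together with B-MYB and FOXM1. Most hepatocytes of an adult liver are quiescent, so the transcripts of dividing cells are scarce in it.

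The promoters of these genes carry both kinds of element. They are shown because most of the licensing and helicase genes with a promoter window carry the E2F element. Genes of this role were 8 of the 26 genes tested, among them Mcm4, which had no window. Cdc6 had a window and was not tested. The 8 tested licensing and helicase genes gave 4 of the 5 tested genes that passed between the 2 compounds in WT mice. They gave 4 of 6 in hCAR/hPXR mice and 1 of 3 in CARko/PXRko mice. Of all genes tested, 2.01%, 9.31% and 7.6% passed between the compounds in these 3 genotypes. RefSeq (build GRCm38.p6) gave windows of 300 bases, from 250 before to 50 after the annotated start, for 31 of the 39 genes. An E2F element (TTTCCCGC, TTTCGCGC, TTTGCCGC or TTTGGCGC, on either strand) was present in 2.6% of all 27025 genes with a window, in 7 of the 31 cell cycle genes (22.6%) and in 6 of the 8 licensing and helicase genes with a window (75%). A CHR element (TTTGAA or TTCGAA, on either strand) was present in 21.7% of all genes, in 2 of those 8 genes (25%), in 4 of 5 genes of the entry into mitosis (80%) and in 9 of 12 genes of the spindle and its checkpoint (75%). None of these 12 held an E2F element, and none of the 4 nucleotide supply genes held either. Matches of one element may overlap each other, no match of one overlapped a match of the other in the windows printed, and a match is a description of letters, not of binding.

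The stretches printed are the 250 bases before the start, 5′ to 3′ on the gene's own strand, with E2F and CHR matches in capitals. Mcm5 lies on the plus strand (chr8:75109259-75109508) and has 2 overlapping E2F matches, the outer one beginning 153 bases before the start. Mcm6 lies on the minus strand (chr1:128359706-128359955) with 3 E2F matches, beginning 110, 106 and 47 bases before the start. Mcm7, also on the minus strand (chr5:138171884-138172133), has a CHR match at 173 and an E2F match at 165 bases before it. Mcm2, on the minus strand (chr6:88898781-88899030), has a CHR match and no E2F match.
Mcm5: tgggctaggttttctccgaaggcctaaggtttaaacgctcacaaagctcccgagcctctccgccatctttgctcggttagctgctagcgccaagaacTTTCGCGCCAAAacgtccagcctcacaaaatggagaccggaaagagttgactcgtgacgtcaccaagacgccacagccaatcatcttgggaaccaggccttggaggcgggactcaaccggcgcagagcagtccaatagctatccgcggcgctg
Mcm6: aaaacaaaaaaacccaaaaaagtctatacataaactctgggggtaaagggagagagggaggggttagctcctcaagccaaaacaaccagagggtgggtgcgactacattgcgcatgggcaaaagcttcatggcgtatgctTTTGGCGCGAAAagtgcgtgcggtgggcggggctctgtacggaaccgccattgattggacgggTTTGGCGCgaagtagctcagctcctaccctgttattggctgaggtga
Mcm7: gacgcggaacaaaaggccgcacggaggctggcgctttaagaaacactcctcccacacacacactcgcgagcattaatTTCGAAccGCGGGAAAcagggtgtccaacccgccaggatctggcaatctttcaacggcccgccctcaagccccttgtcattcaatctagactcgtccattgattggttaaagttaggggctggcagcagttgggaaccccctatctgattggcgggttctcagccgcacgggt
Mcm2: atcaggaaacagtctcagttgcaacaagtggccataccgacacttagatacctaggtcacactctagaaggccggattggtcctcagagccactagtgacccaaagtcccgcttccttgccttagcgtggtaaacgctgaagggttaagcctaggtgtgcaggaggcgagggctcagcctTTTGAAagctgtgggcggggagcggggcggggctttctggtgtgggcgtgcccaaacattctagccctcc

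Rrm2 on the plus strand (chr12:24708004-24708253), the one tested gene to pass as higher with CPA than with DCB, has neither element. Rrm1, which passed as lower with CPA than with DCB in WT mice, has neither element as well. Mcm3 has E2F matches and did not pass between the compounds. The part of these elements in the results was not tested. Mki67 on the minus strand (chr7:135716380-135716629), which encodes the Ki-67 protein of dividing cells, has 2 CHR matches, beginning 116 and 98 bases before the start.
Rrm2: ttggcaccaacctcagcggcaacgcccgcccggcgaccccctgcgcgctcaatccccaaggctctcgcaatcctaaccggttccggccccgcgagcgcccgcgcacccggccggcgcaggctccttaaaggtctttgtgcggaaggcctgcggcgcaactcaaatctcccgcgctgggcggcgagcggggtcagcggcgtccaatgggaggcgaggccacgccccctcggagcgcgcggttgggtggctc
Mki67: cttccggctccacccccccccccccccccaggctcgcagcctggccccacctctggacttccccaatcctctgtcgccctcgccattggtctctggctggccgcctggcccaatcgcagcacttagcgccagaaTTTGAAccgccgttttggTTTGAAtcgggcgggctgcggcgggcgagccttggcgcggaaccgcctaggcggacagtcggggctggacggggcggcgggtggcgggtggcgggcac

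Signal over background set what could be seen. The 81 probe sets of 73 odorant, vomeronasal and taste receptor genes, which liver is not known to express, had mean signals with a median of 4.10 and a 95th percentile of 5.62, and 22 of the 38 measured cell cycle genes had means under that percentile. These were 1 of 4 G1/S genes (Ccne2), 2 of 9 licensing and helicase genes (Cdc6 and Mcm3), 1 of 4 nucleotide supply genes (Tyms), 5 of 7 measured genes of the entry into mitosis and 13 of 14 genes of the spindle, checkpoint and chromosomes. A gene was tested when its signal was above the median of the array on 3 arrays or more, and 26 genes passed. The 12 that were not tested were Cdc6, Tyms, Ccnb2, Aurkb, Bub1, Birc5, Kif11, Kif20a, Nusap1, Tpx2, Cenpe and Cenpf. Changes of genes this dim are compressed, and their levels had only a bound.

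**Figure D1:**
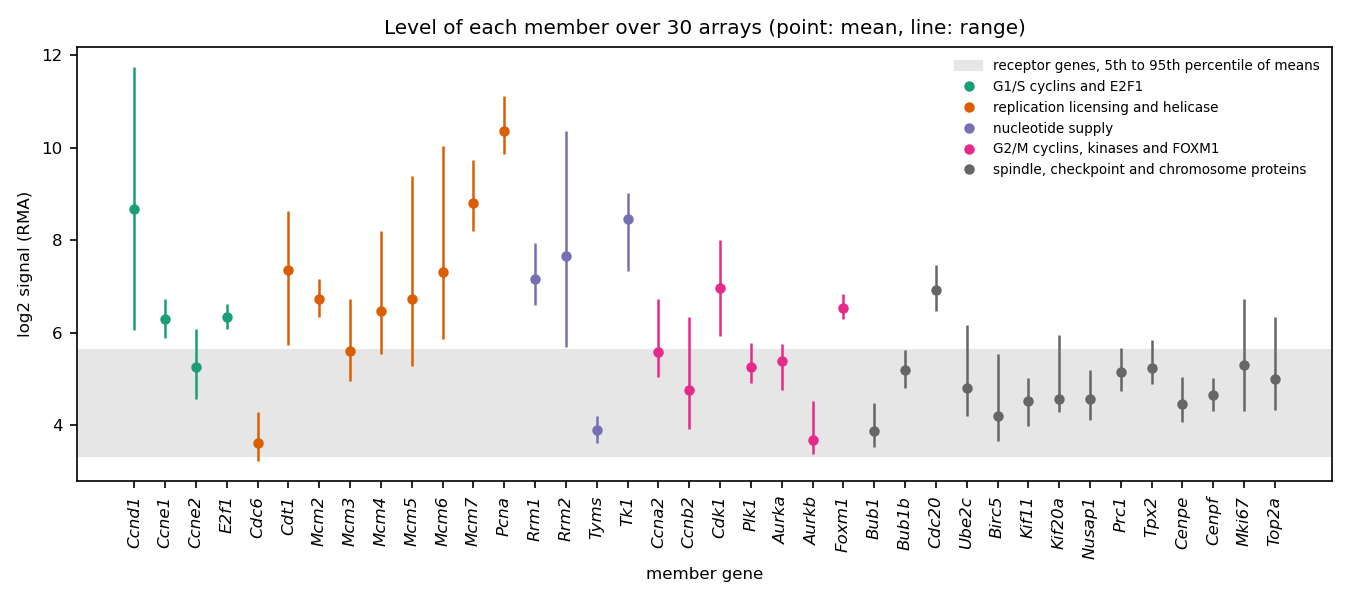
Signal of the 38 measured cell cycle genes, grouped by role along the horizontal axis (points, means over 30 arrays; lines, lowest to highest array; vertical axis, log2 signal), with the 5th to 95th percentile of the receptor genes' means (3.33 to 5.62) in grey. Most of the mitotic genes lie inside the grey band, and levels of different probe sets are not comparable with one another.

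Over the whole series, array medians lay between 5.36 and 5.44. The deposited values had already been normalised together, so like medians do not show that the arrays were comparable. The CAR target Cyp2b10, used as a reference for exposure, was higher after DCB by 3.98 ± 0.77 in WT and 6.2 ± 0.77 in hCAR/hPXR mice (adjusted p = 0.0083 and 3.51e-05, limma), and it did not pass the test in CARko/PXRko mice (-0.56 ± 0.77, adjusted p = 0.918). After CPA it was higher in WT, hCAR/hPXR and CARko/PXRko mice (7.28 ± 0.77, 6.13 ± 0.77 and 3.51 ± 0.77; adjusted p = 6.73e-06, 2.76e-05 and 0.00812). Cbr3, a carbonyl reductase, was higher after DCB in those 3 genotypes (5.11, 5.82 and 4.33). Skeletal muscle transcripts stood above the WT corn oil level on 4 arrays, by a median of 6.57 on CARko/PXRko corn oil replicate 2, 1.33 on PXRko corn oil replicate 3, and 2.05 and 6.51 on CARko/PXRko DCB replicates 2 and 3. The median difference of 9 hepatocyte markers from their WT corn oil level lay between -0.17 and 0.13 on every array, and single markers may have moved further. CARko/PXRko DCB replicate 3 also stood above the WT corn oil level by a median of 6.77 for brown fat and 5.0 for adrenal cortex markers. The log2 of the summed squamous epithelium signal was 12.34 and 10.59 on CARko/PXRko DCB replicates 2 and 3, against 9.22 on replicate 1 and 8.97 to 9.77 in the other groups. These 4 arrays were left out of a second fit, in which CARko/PXRko mice kept 2 corn oil arrays, 1 DCB array assumed to vary like the other groups, and 3 CPA arrays. Its values are given beside many of the CARko/PXRko results.

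Against corn oil, 0 of the 26 tested genes passed in DCB-treated WT mice (0.735% of all genes tested did, 0.61% higher and 0.125% lower; 6 of the 26 had an unadjusted p under 0.05), 0 in DCB-treated hCAR/hPXR mice (7.64% of all, 3.29% higher and 4.35% lower; 5 unadjusted) and 0 in DCB-treated CARko/PXRko mice (0.117% of all, each of them higher; 0 unadjusted). CPA-treated WT mice also gave 0 (1.12% of all, 0.485% higher and 0.633% lower; 2 unadjusted). In CPA-treated hCAR/hPXR mice 3 of 26 passed, 1 higher and 2 lower (11.5%, against 4.42% of all genes tested, 1.52% higher and 2.9% lower), and in CPA-treated CARko/PXRko mice 1 passed, lower (3.85%, against 5.49% of all, 2.18% higher and 3.31% lower). The genes that passed were Ccnd1, Rrm2 and Mki67.

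**Figure D2:**
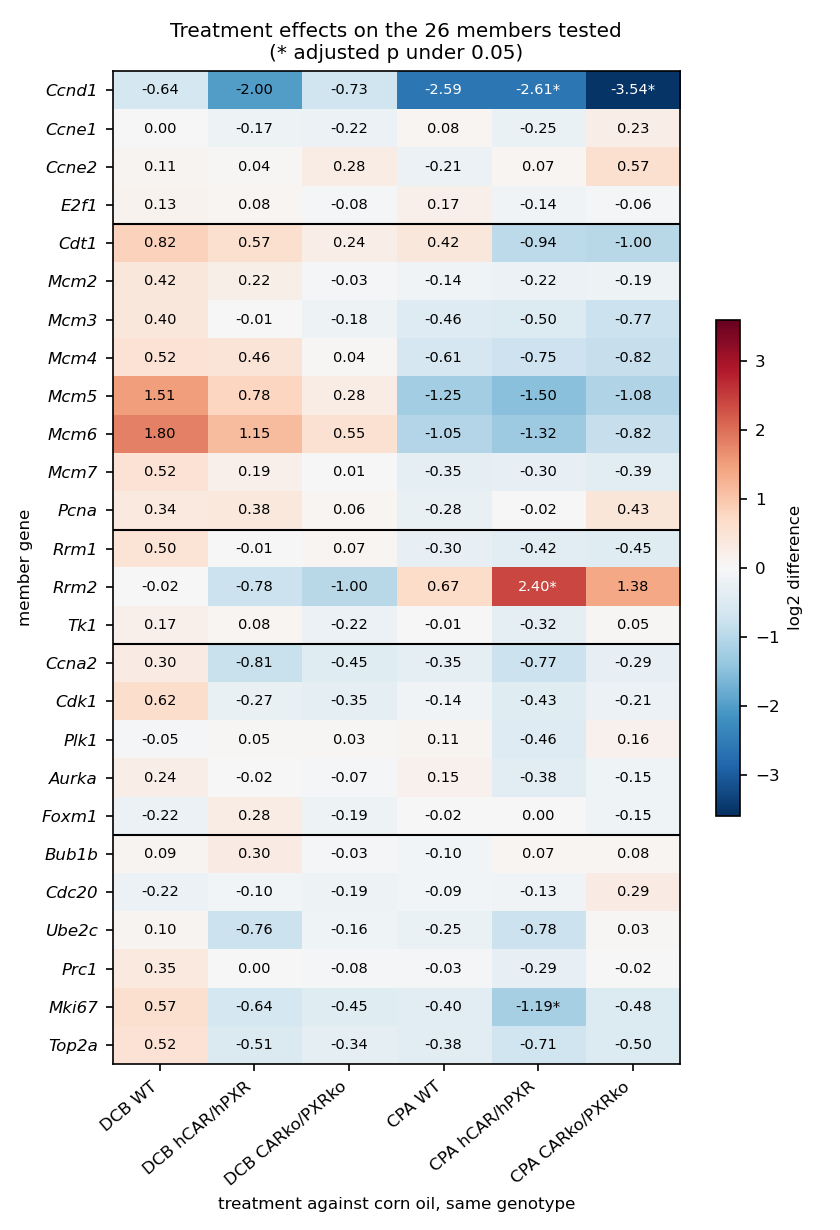
Log2 difference from corn oil of the same genotype (colour and number) for the 26 tested cell cycle genes (rows, by role) in the 6 treated groups (columns); stars mark an adjusted p under 0.05. The 4 stars fall on Ccnd1 (-2.61 and -3.54), Rrm2 (2.40) and Mki67 (-1.19), all in CPA columns, and the Mcm5 and Mcm6 rows are positive under DCB and negative under CPA in each genotype.

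Of the 4 G1/S genes tested, Ccnd1 alone passed. Ccnd1, which encodes cyclin D1, stood at 10.13, 9.83 and 9.18 on the WT corn oil arrays, at 8.88, 9.0 and 9.34 after DCB and at 6.87, 7.65 and 6.85 after CPA. The hCAR/hPXR corn oil arrays gave 10.91, 9.59 and 9.66, the DCB arrays 9.58, 8.53 and 6.05 and the CPA arrays 7.18, 8.14 and 7.02. CARko/PXRko livers gave 9.42, 11.75 and 9.4 with corn oil, 9.16, 8.66 and 10.56 with DCB and 7.01, 6.48 and 6.47 with CPA. All 9 CPA arrays lay below all 9 corn oil arrays of these genotypes, and the highest control, 11.75, was the CARko/PXRko array with muscle transcripts.

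Ccnd1 fell with CPA by 2.61 ± 0.67 in hCAR/hPXR mice (6.1-fold, adjusted p = 0.0249, limma) and by 3.54 ± 0.67 in CARko/PXRko mice (11.6-fold, adjusted p = 0.0025). Without the arrays with muscle transcripts the latter was -2.76 (adjusted p = 0.0168), the same as without CARko/PXRko corn oil replicate 2 alone. In WT mice the difference was -2.59 ± 0.67 and missed the threshold (adjusted p = 0.0579); it passed with only the compared groups in the fit (adjusted p = 0.000956). The call in hCAR/hPXR mice ended without corn oil replicate 1 (-2.18, adjusted p = 0.152), CPA replicate 1 (-2.48, adjusted p = 0.108) or CPA replicate 3 (-2.39, adjusted p = 0.0921). The other 2 probe sets of Ccnd1 gave -2.24 ± 0.53 and -2.37 ± 0.59 in hCAR/hPXR mice.

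The DCB effect on Ccnd1 in hCAR/hPXR mice was -2.0 ± 0.67 (adjusted p = 0.0698), and replicate 3 was the lowest array of the series for this gene. It passed without DCB replicate 1 (-2.77, adjusted p = 0.0161) or without the arrays with muscle transcripts (-2.00, adjusted p = 0.0362). In WT and CARko/PXRko mice the DCB values were -0.64 ± 0.67 and -0.73 ± 0.67, with overlapping arrays. In bulk liver, fewer cells of a type and less RNA per cell cannot be told apart. Liver cells other than hepatocytes express Ccnd1 as well, and markers of Kupffer cells were also lower after CPA: 7 of 10 passed in hCAR/hPXR mice, 2 of 10 in WT and 1 of 10 in CARko/PXRko mice, while 0 of 9 hepatocyte markers passed in any of the 3. The log2 of the Kupffer markers' summed signal ran from 13.43 to 13.65 with corn oil and from 11.76 to 12.93 with CPA in hCAR/hPXR mice, from 13.06 to 13.38 and from 12.33 to 12.52 in WT mice, and from 12.86 to 13.17 and from 12.22 to 13.05 in CARko/PXRko mice; their part in this result, and in those for Rrm2 and Mki67 in hCAR/hPXR mice, was not tested. With DCB, 6 of 10 Kupffer markers were lower in hCAR/hPXR mice.

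Markers of other liver cells moved as well. With CPA, 1, 3 and 2 of 6 lymphocyte markers were lower in WT, hCAR/hPXR and CARko/PXRko mice, and Ptprc, the pan-leukocyte antigen CD45, was lower in each (-1.82, -2.46 and -1.64). Endothelial markers were lower for 0, 1 and 2 of 9 in the same order, with Lyve1 higher in CARko/PXRko mice, and stellate cell markers for 0, 0 and 2 of 10. In CARko/PXRko mice the stellate calls, Col3a1 (-2.48 ± 0.71) and Reln (-0.99 ± 0.27), were lost without the arrays with muscle transcripts (-1.69 and -1.06). The endothelial call on Kdr (-0.52 ± 0.15) was lost there too (-0.57). Those on Cdh5 (-0.87 ± 0.21) and Lyve1 (3.53 ± 0.63) were kept (-0.75 and 3.92). With DCB in hCAR/hPXR mice, 2 of 10 stellate cell markers (Lrat and Reln), 1 of 6 lymphocyte markers (Ptprc) and 1 of 9 hepatocyte markers (Fgb) were lower. Of the erythroid markers, Tfrc alone passed with DCB, higher in WT mice (2.28 ± 0.45, adjusted p = 0.0102, limma). It was also higher with DCB in hCAR/hPXR mice (3.03 ± 0.45, adjusted p = 0.000284). The erythroid list as a whole did not rise. The median difference of its 6 measured markers from WT corn oil was -0.13 to 0.02 on the WT DCB arrays. On the hCAR/hPXR arrays it was -0.15 to -0.03 with DCB and -0.18 to -0.03 with corn oil. In limma, 0 of 4 neutrophil and 0 of 5 cholangiocyte markers passed with either compound in any genotype. The part of these cells in the cell cycle results was not tested.

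The other G1/S genes stayed near their control levels and none passed. E2f1, the E2F family member of this set, ran from 6.08 to 6.62 over the 30 arrays. It gave 6.29, 6.11 and 6.62 with corn oil, 6.6, 6.58 and 6.23 with DCB and 6.53, 6.52 and 6.48 with CPA in WT mice. The hCAR/hPXR arrays gave 6.46, 6.28 and 6.42 with corn oil, 6.45, 6.37 and 6.58 with DCB and 6.17, 6.08 and 6.49 with CPA, and the CARko/PXRko arrays 6.24, 6.47 and 6.27 with corn oil, 6.34, 6.24 and 6.14 with DCB and 6.21, 6.33 and 6.25 with CPA. These groups overlapped throughout, and the 6 treatment effects on E2f1 lay between -0.14 and 0.17. For Ccne1 and Ccne2, the E cyclins that drive entry into S phase, effects ran from -0.25 to 0.23 and from -0.21 to 0.57.

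**Figure D3:**
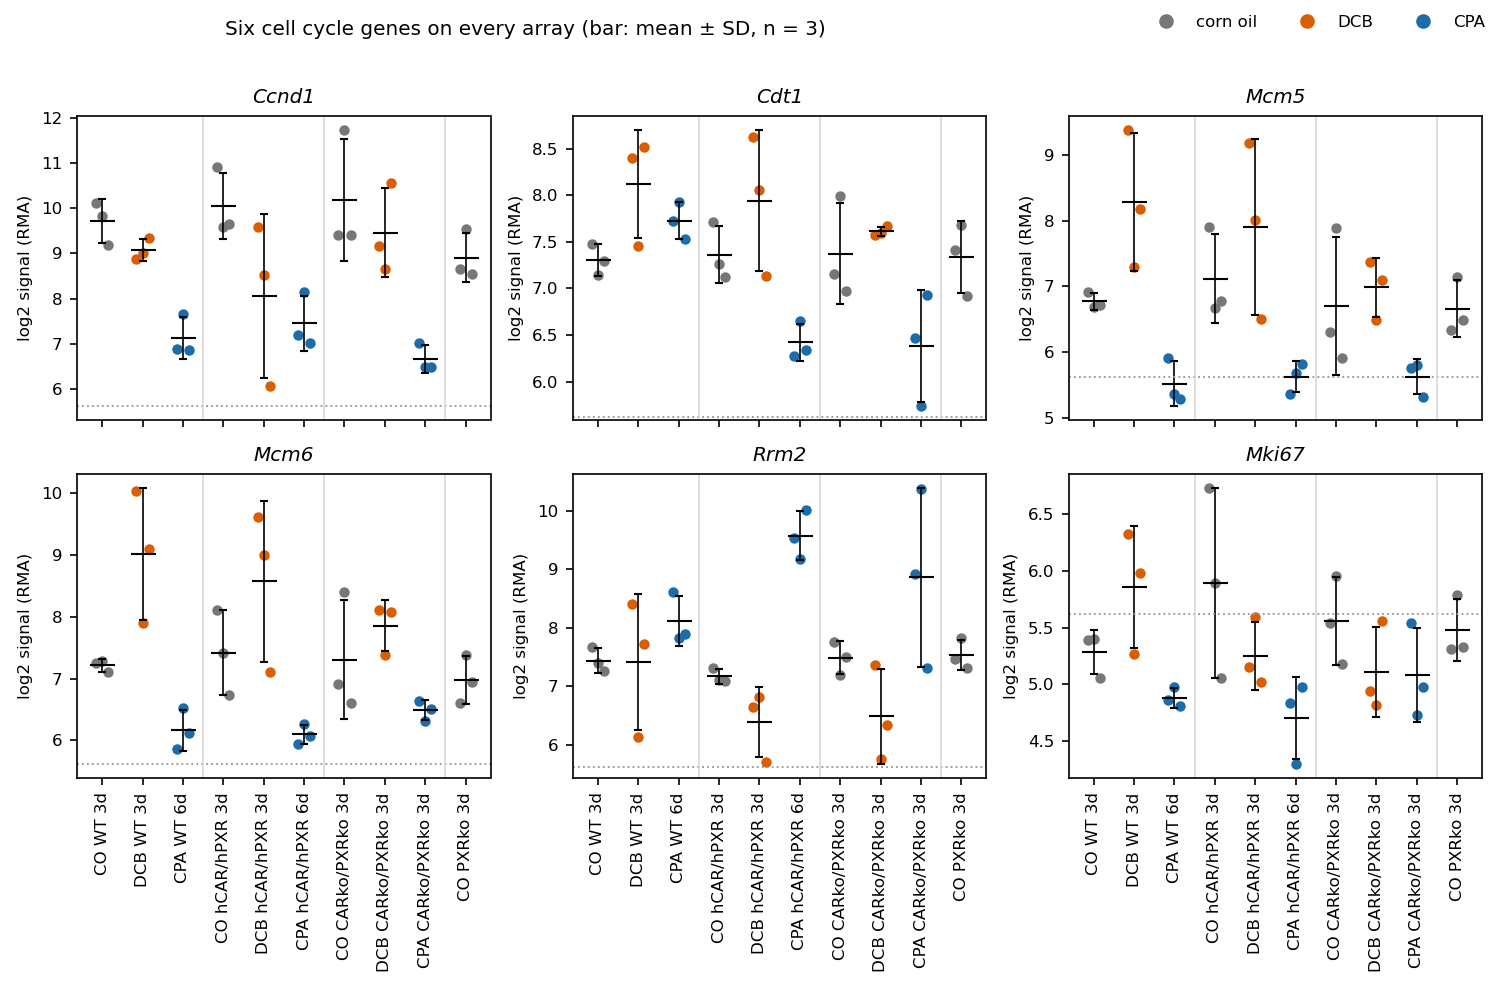
Log2 signal of 6 cell cycle genes on each of the 30 arrays, by group along the horizontal axis (points, arrays; bars, mean ± SD, n = 3; dotted line, the 95th percentile of the receptor genes' means, 5.62). Ccnd1 is low on all 9 CPA arrays, Mcm5 and Mcm6 are high on most DCB arrays and low on CPA arrays, and Rrm2 is high with CPA in hCAR/hPXR mice.

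The licensing and helicase genes made up 8 of the 26 tested genes. They were 4 of 5, 4 of 6 and 1 of 3 of those that passed between the compounds in WT, hCAR/hPXR and CARko/PXRko mice. Of all genes tested, 2.01%, 9.31% and 7.6% passed in the same order. Mcm6, a subunit of the helicase ring, gave 7.26, 7.29 and 7.1 in WT mice with corn oil, 10.04, 7.9 and 9.1 with DCB and 5.86, 6.52 and 6.12 with CPA. hCAR/hPXR mice gave 8.11, 7.42 and 6.73 with corn oil, 9.61, 9.0 and 7.11 with DCB and 5.95, 6.26 and 6.08 with CPA. In CARko/PXRko mice the same groups gave 6.92, 8.4 and 6.6 with corn oil, 8.11, 7.38 and 8.07 with DCB and 6.64, 6.32 and 6.51 with CPA. In WT mice the order was DCB above corn oil above CPA with no overlap; in the other genotypes the DCB arrays overlapped the controls, as did the CPA arrays of CARko/PXRko mice.

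Against corn oil Mcm6 passed in no genotype. The DCB effects were 1.8 ± 0.52, 1.15 ± 0.52 and 0.55 ± 0.52 in WT, hCAR/hPXR and CARko/PXRko mice (adjusted p = 0.129, 0.183 and 0.861), and the CPA effects -1.05 ± 0.52, -1.32 ± 0.52 and -0.82 ± 0.52 (adjusted p = 0.507, 0.18 and 0.378). Without the arrays with muscle transcripts the CARko/PXRko values were 1.35 with DCB (adjusted p = 0.939) and -0.27 with CPA (adjusted p = 0.831). With only the compared groups in the fit, the CPA effect passed in WT mice (adjusted p = 0.00633). Single DCB arrays decided the DCB result in 2 genotypes: without WT DCB replicate 2 the effect was 2.35 (adjusted p = 0.0405), and without hCAR/hPXR DCB replicate 3 it was 1.88 (adjusted p = 0.0254).

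Mcm5, another ring subunit, had the same order in WT mice. Its arrays gave 6.92, 6.68 and 6.72 with corn oil, 9.39, 7.29 and 8.18 with DCB and 5.91, 5.36 and 5.29 with CPA in WT mice. hCAR/hPXR mice gave 7.9, 6.67 and 6.78 with corn oil, 9.18, 8.01 and 6.51 with DCB and 5.36, 5.68 and 5.82 with CPA, and CARko/PXRko mice gave 6.31, 7.89 and 5.91 with corn oil, 7.37, 6.49 and 7.1 with DCB and 5.75, 5.8 and 5.32 with CPA. With CPA its signal sat close to or below 5.62, the background percentile, so falls of Mcm5 are bounded from below. None of its 6 effects passed; they were 1.51 ± 0.54, 0.78 ± 0.54 and 0.28 ± 0.54 with DCB and -1.25 ± 0.54, -1.5 ± 0.54 and -1.08 ± 0.54 with CPA. In CARko/PXRko mice they were 1.26 and -0.49 without the arrays with muscle transcripts (adjusted p = 0.961 and 0.683). The CPA effects in WT and hCAR/hPXR mice passed with only the compared groups in the fit (adjusted p = 0.00337 and 0.0476).

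Mcm7 gave 8.74, 8.59 and 8.78 with corn oil, 9.73, 8.74 and 9.2 with DCB and 8.26, 8.58 and 8.2 with CPA in WT mice. The values were 9.02, 8.88 and 8.71 with corn oil, 9.54, 9.07 and 8.57 with DCB and 8.45, 8.92 and 8.35 with CPA in hCAR/hPXR mice, and 9.06, 9.05 and 8.89 with corn oil, 9.24, 8.81 and 8.97 with DCB and 8.53, 8.5 and 8.81 with CPA in CARko/PXRko mice. Its changes were smaller than those of Mcm5 and Mcm6, with effects between -0.39 and 0.52, and the CPA arrays of WT and CARko/PXRko mice lay below their controls.

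Mcm2 gave 6.42, 6.87 and 6.7 with corn oil, 7.1, 7.02 and 7.13 with DCB and 6.55, 6.56 and 6.45 with CPA in WT mice. In hCAR/hPXR mice it gave 6.88, 6.45 and 6.71 with corn oil, 6.98, 6.95 and 6.77 with DCB and 6.33, 6.48 and 6.57 with CPA, and in CARko/PXRko mice 6.81, 7.17 and 6.61 with corn oil, 6.76, 6.82 and 6.91 with DCB and 6.63, 6.56 and 6.83 with CPA. The 3 WT DCB arrays lay above the controls (0.42 ± 0.14, adjusted p = 0.204), and the arrays of the other 2 genotypes overlapped. A second Mcm2 probe set, dimmer on average (5.16), gave larger DCB effects of 1.2 ± 0.39 in WT and 1.32 ± 0.39 in hCAR/hPXR mice.

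Mcm3, dim on this array, gave 5.7, 5.77 and 5.73 with corn oil, 6.74, 5.75 and 5.92 with DCB and 5.02, 5.17 and 5.63 with CPA in WT mice. The hCAR/hPXR arrays gave 6.22, 5.45 and 5.82 with corn oil, 6.46, 5.68 and 5.34 with DCB and 5.34, 5.35 and 5.29 with CPA, and the CARko/PXRko arrays 5.42, 6.29 and 5.76 with corn oil, 5.75, 5.57 and 5.62 with DCB and 5.15, 5.07 and 4.95 with CPA. The CPA arrays lay below the controls in each genotype (-0.46 ± 0.26, -0.50 ± 0.26 and -0.77 ± 0.26), and none passed (adjusted p = 0.612, 0.358 and 0.0862). Mcm4 was similar, with CPA effects of -0.61 ± 0.39, -0.75 ± 0.39 and -0.82 ± 0.39. In CARko/PXRko mice without the arrays with muscle transcripts, Mcm3 gave -0.54 and Mcm4 -0.34 with CPA (adjusted p = 0.326 and 0.686).

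Cdt1, which loads the ring onto DNA, gave 7.48, 7.14 and 7.29 with corn oil, 8.4, 7.46 and 8.52 with DCB and 7.72, 7.93 and 7.53 with CPA in WT mice. hCAR/hPXR mice gave 7.71, 7.26 and 7.12 with corn oil, 8.63, 8.06 and 7.13 with DCB and 6.28, 6.65 and 6.34 with CPA. CARko/PXRko mice gave 7.16, 7.99 and 6.97 with corn oil, 7.57, 7.6 and 7.67 with DCB and 6.47, 5.74 and 6.93 with CPA. With CPA it lay above the controls in WT mice (0.42 ± 0.34) and below them in hCAR/hPXR (-0.94 ± 0.34) and CARko/PXRko mice (-1.0 ± 0.34; adjusted p = 0.803, 0.129 and 0.0841). The CARko/PXRko value was -0.69 without the arrays with muscle transcripts (adjusted p = 0.311), and the hCAR/hPXR value passed with only the compared groups in the fit (adjusted p = 0.0424). Neither difference of these effects from that in WT mice passed (-1.36 ± 0.47, adjusted p = 0.878, and -1.42 ± 0.47, adjusted p = 0.466).

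Pcna, the sliding clamp, gave 10.22, 10.17 and 10.58 with corn oil, 10.89, 10.34 and 10.75 with DCB and 9.86, 10.17 and 10.1 with CPA in WT mice. It gave 10.29, 10.25 and 10.54 with corn oil, 10.71, 10.42 and 11.11 with DCB and 10.18, 10.32 and 10.53 with CPA in hCAR/hPXR mice and 10.18, 10.2 and 9.97 with corn oil, 10.1, 10.02 and 10.4 with DCB and 10.43, 10.93 and 10.29 with CPA in CARko/PXRko mice. The CPA arrays lay below the controls in WT mice (-0.28 ± 0.18) and above them in CARko/PXRko mice (0.43 ± 0.18), and neither passed (adjusted p = 0.708 and 0.182). PCNA also serves DNA repair, outside S phase.

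As a group, all 8 tested licensing and helicase genes had positive differences with DCB in WT mice (median 0.52, against -0.01 over all genes), and so had 7 of 8 in hCAR/hPXR mice (median 0.42) and 6 of 8 in CARko/PXRko mice (median 0.05). With CPA, 7, 8 and 7 of the 8 were negative in WT, hCAR/hPXR and CARko/PXRko mice, with medians of -0.41, -0.63 and -0.79. The CARko/PXRko medians moved without the muscle-bearing arrays: 8 of 8 were positive with DCB (median 0.37) and 7 of 8 negative with CPA (median -0.35). No single one of them passed against corn oil. The 8 genes were read on the same arrays, so their signs, here and between the compounds, are not 8 separate observations. WT DCB replicate 1 was the highest of its group for 17 of the 26 tested genes, and replicate 2 the lowest for 19. The 3 treated and 3 control arrays did not overlap for 5 of the 26 tested genes with DCB in WT mice, all above (Mcm2, Mcm5, Mcm6, Rrm1 and Prc1; 10.2% of all genes were above, and 0 of the 26 against 11.5% of all were below). With DCB in hCAR/hPXR mice 1 was above (Foxm1; 10% of all) and 2 below (Ccnd1 and Rrm2; 13.8% of all), and in CARko/PXRko mice 0 were above and 0 below (5.99% and 5.6% of all). With CPA, 10 of 26 were below in WT (14.4% of all) and 10 in hCAR/hPXR mice (13% of all), and 7 in CARko/PXRko mice (12.8% of all); Ccnd1, Mcm3, Mcm4, Mcm5 and Rrm1 were among them in each genotype. Above the controls with CPA were 2 in WT (Cdt1 and Rrm2; 11.7% of all), 1 in hCAR/hPXR mice (Rrm2; 9.7% of all) and 1 in CARko/PXRko mice (Pcna; 10.9% of all).

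Among the genes of nucleotide supply, Rrm2 and Rrm1, the small and large subunits of ribonucleotide reductase, had CPA effects of opposite sign. Rrm2 gave 7.67, 7.39 and 7.26 with corn oil, 8.41, 6.14 and 7.72 with DCB and 8.61, 7.83 and 7.9 with CPA in WT mice. The hCAR/hPXR values were 7.32, 7.11 and 7.09 with corn oil, 6.65, 6.82 and 5.7 with DCB and 9.53, 9.18 and 10.02 with CPA. The CARko/PXRko arrays gave 7.76, 7.2 and 7.5 with corn oil, 7.37, 5.76 and 6.33 with DCB and 8.92, 10.37 and 7.31 with CPA. In hCAR/hPXR mice the 3 groups separated fully, with CPA at the top and DCB at the bottom, while the CPA arrays of CARko/PXRko mice spread over the widest range of any group for this gene.

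Rrm2 rose with CPA by 2.40 ± 0.55 in hCAR/hPXR mice (5.3-fold, adjusted p = 0.0111, limma), and the call ended without CPA replicate 3 (2.18, adjusted p = 0.0564). In WT and CARko/PXRko mice the CPA effects were 0.67 ± 0.55 and 1.38 ± 0.55 (adjusted p = 0.816 and 0.148); in the latter it passed without CPA replicate 3 (2.16, adjusted p = 0.0139) and was 1.24 without the arrays with muscle transcripts (adjusted p = 0.285). The DCB effect there went from -1.0 ± 0.55 to -0.25 without those arrays. Its other 2 probe sets gave 2.59 ± 0.53 and 1.58 ± 0.37 in hCAR/hPXR mice. The effects on Rrm1 were -0.30 ± 0.21, -0.42 ± 0.21 and -0.45 ± 0.21, none of which passed (adjusted p = 0.739, 0.325 and 0.222).

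Tk1, the cytosolic thymidine kinase, gave 8.73, 8.55 and 8.58 with corn oil, 8.65, 8.74 and 8.98 with DCB and 8.33, 8.67 and 8.82 with CPA in WT mice. It gave 8.52, 8.45 and 8.6 with corn oil, 8.82, 9.03 and 7.96 with DCB and 7.84, 8.59 and 8.2 with CPA in hCAR/hPXR mice and 8.61, 7.83 and 8.33 with corn oil, 8.9, 7.89 and 7.33 with DCB and 8.45, 8.39 and 8.08 with CPA in CARko/PXRko mice. The groups overlapped in all 6 comparisons, with effects between -0.32 and 0.17. Tyms, thymidylate synthase, was at background on all arrays, between 3.61 and 4.21.

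Among the genes of entry into mitosis, Cdk1, the kinase that drives it, was clear of the array's background. It gave 6.78, 6.79 and 7.37 with corn oil, 8.0, 7.0 and 7.8 with DCB and 6.67, 6.76 and 7.09 with CPA in WT mice. hCAR/hPXR arrays gave 7.79, 6.81 and 6.93 with corn oil, 6.72, 7.38 and 6.62 with DCB and 6.42, 6.96 and 6.87 with CPA; CARko/PXRko arrays gave 6.82, 7.45 and 6.87 with corn oil, 7.06, 5.94 and 7.09 with DCB and 7.08, 6.83 and 6.6 with CPA. Groups overlapped in every comparison with corn oil, and the largest effect was 0.62 ± 0.31 with DCB in WT mice (adjusted p = 0.506).

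Ccna2 (cyclin A2), which partners CDK2 and CDK1, gave 5.63, 5.5 and 5.95 with corn oil, 6.04, 5.42 and 6.5 with DCB and 5.7, 5.13 and 5.2 with CPA in WT mice. It gave 6.72, 6.31 and 5.37 with corn oil, 5.26, 5.63 and 5.06 with DCB and 5.48, 5.26 and 5.36 with CPA in hCAR/hPXR mice, and in CARko/PXRko mice 5.45, 6.26 and 5.54 with corn oil, 5.31, 5.04 and 5.56 with DCB and 5.78, 5.28 and 5.32 with CPA. The hCAR/hPXR effects were -0.81 ± 0.31 with DCB and -0.77 ± 0.31 with CPA (adjusted p = 0.11 and 0.195), and each passed without corn oil replicate 3 (-1.19, adjusted p = 0.0233, and -1.15, adjusted p = 0.0361). That array was the lowest of the 3 controls for this gene and within the range of the treated arrays.

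Plk1, a mitotic kinase, gave 5.5, 5.49 and 5.29 with corn oil, 5.21, 5.45 and 5.78 with DCB and 4.95, 4.92 and 5.03 with CPA in hCAR/hPXR mice. In WT mice it gave 5.06, 5.36 and 5.3 with corn oil, 5.34, 5.14 and 5.08 with DCB and 5.13, 5.69 and 5.23 with CPA, and in CARko/PXRko mice 4.98, 5.5 and 5.23 with corn oil, 5.37, 5.24 and 5.19 with DCB and 5.58, 5.28 and 5.34 with CPA. The CPA arrays of hCAR/hPXR mice lay below both other groups (-0.46 ± 0.15 against corn oil, adjusted p = 0.1), within a total range of 4.92 to 5.78 that lies close to background.

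Foxm1, a transcription factor of the mitotic programme, gave 6.43, 6.8 and 6.73 with corn oil, 6.54, 6.47 and 6.29 with DCB and 6.5, 6.76 and 6.65 with CPA in WT mice. It gave 6.4, 6.36 and 6.52 with corn oil, 6.55, 6.82 and 6.74 with DCB and 6.49, 6.39 and 6.39 with CPA in hCAR/hPXR mice and 6.84, 6.43 and 6.62 with corn oil, 6.37, 6.53 and 6.42 with DCB and 6.49, 6.47 and 6.49 with CPA in CARko/PXRko mice. Its effects were small, from -0.22 to 0.28, and none passed; the 3 DCB arrays of hCAR/hPXR mice lay above their controls. Aurka, the kinase of the spindle poles, had effects between -0.38 and 0.24, with overlapping arrays in each comparison with corn oil.

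Among the spindle, checkpoint and chromosome genes, Mki67 alone passed. It gave 6.73, 5.89 and 5.06 with corn oil, 5.15, 5.59 and 5.02 with DCB and 4.84, 4.3 and 4.98 with CPA in hCAR/hPXR mice. WT mice gave 5.39, 5.4 and 5.06 with corn oil, 6.32, 5.27 and 5.98 with DCB and 4.86, 4.98 and 4.81 with CPA, and CARko/PXRko mice gave 5.54, 5.95 and 5.18 with corn oil, 4.94, 4.82 and 5.56 with DCB and 5.54, 4.73 and 4.98 with CPA. Most of these values lie under the background percentile of 5.62, and the hCAR/hPXR controls are spread over a wider range than the CPA arrays.

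Mki67 fell by 1.19 ± 0.33 with CPA in hCAR/hPXR mice (adjusted p = 0.0363, limma). The call ended without corn oil replicate 1 (-0.77, adjusted p = 0.282), corn oil replicate 2 (-1.19, adjusted p = 0.0998), CPA replicate 1 (-1.25, adjusted p = 0.0862) or CPA replicate 2 (-0.98, adjusted p = 0.145). In WT and CARko/PXRko mice the CPA effects were -0.40 ± 0.33 and -0.48 ± 0.33, and neither passed (adjusted p = 0.814 and 0.413); the latter was -0.28 without the arrays with muscle transcripts.

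Cdc20, the activator of the anaphase-promoting complex, gave 6.99, 7.25 and 7.04 with corn oil, 6.92, 7.0 and 6.71 with DCB and 7.05, 6.96 and 7.02 with CPA in WT mice. The hCAR/hPXR values were 7.25, 6.72 and 6.99 with corn oil, 6.97, 6.8 and 6.9 with DCB and 6.87, 6.68 and 7.03 with CPA, and the CARko/PXRko values 6.61, 6.92 and 6.97 with corn oil, 6.94, 6.5 and 6.48 with DCB and 7.12, 6.8 and 7.46 with CPA. Its 3 probe sets disagreed: with CPA in hCAR/hPXR mice this one gave -0.13 ± 0.16, and the other 2 gave -1.08 ± 0.36 and -1.27 ± 0.44. Top2a, the topoisomerase of chromosome condensation, and Ube2c, the ubiquitin-conjugating enzyme of the anaphase-promoting complex, had hCAR/hPXR effects with CPA of -0.71 ± 0.39 and -0.78 ± 0.37 (adjusted p = 0.397 and 0.294), and Bub1b and Prc1 of 0.07 ± 0.16 and -0.29 ± 0.17.

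Arrays of one group differed in many of these genes at once. hCAR/hPXR corn oil replicate 1 was the highest of its 3 arrays for 21 of the 26 tested genes, WT DCB replicate 1 for 17, and CARko/PXRko corn oil replicate 2, which holds muscle transcripts, for 18. The lowest arrays were WT DCB replicate 2 for 19 genes, and hCAR/hPXR DCB replicate 3 and CARko/PXRko DCB replicate 2 for 17 each. Of the 12 genes too dim to test, WT DCB replicate 1 was the highest of its group for 10, and WT DCB replicate 2 the lowest for 10. CARko/PXRko corn oil replicate 2 was the highest of its group for 9. In the hCAR/hPXR corn oil group, replicate 1 was the highest for 8, replicate 2 for 2 and replicate 3 for 2. On hCAR/hPXR corn oil replicate 1, Ccnb2 (cyclin B2) gave 6.35, Kif20a 5.96 and Birc5 (survivin) 5.54, against 5.02 and 4.94, 4.78 and 4.45, and 4.38 and 4.05 on the other 2 arrays of that group.

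The compounds were then compared with each other within a genotype, where more of the genes passed. CPA minus DCB gave 5 of 26 tested genes in WT mice, all lower (19.2%, against 2.01% of all genes tested, 0.75% higher and 1.26% lower), 6 in hCAR/hPXR mice, 5 lower and 1 higher (23.1%, against 9.31% of all, 5.24% higher and 4.06% lower), and 3 in CARko/PXRko mice, 2 lower and 1 higher (11.5%, against 7.6% of all, 3.27% higher and 4.32% lower). The labelled durations are 6 days against 3 days in WT and hCAR/hPXR mice, and 3 days for both compounds in CARko/PXRko mice.

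**Figure D4:**
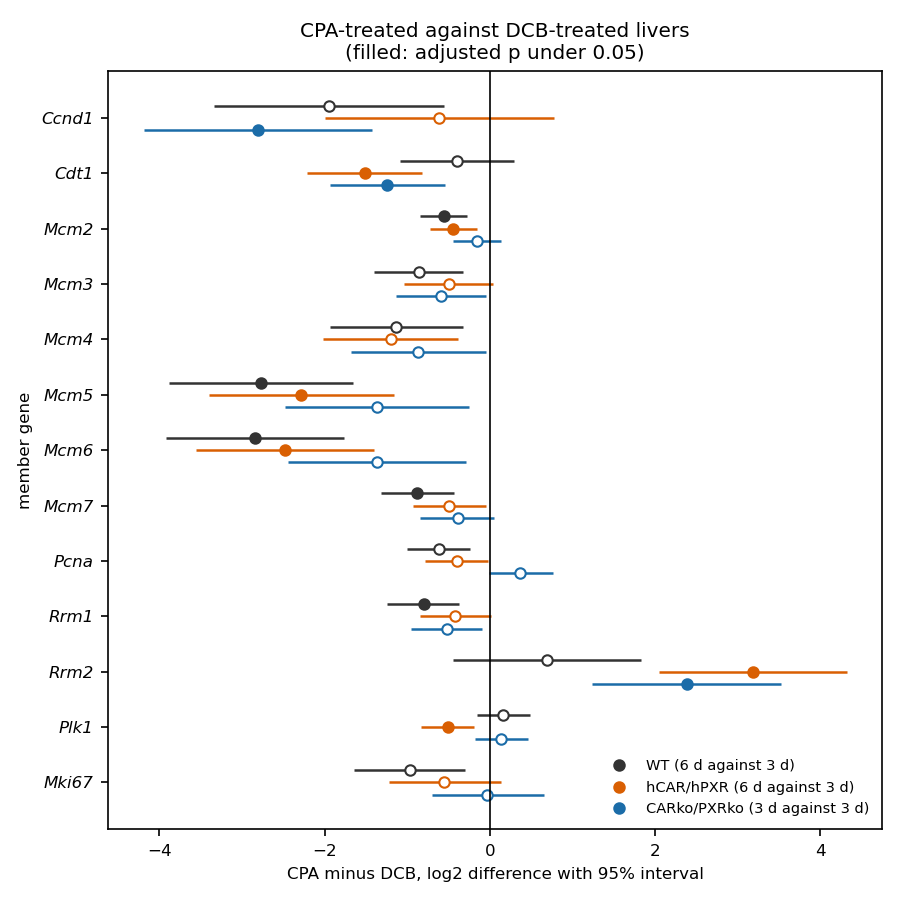
CPA minus DCB for 13 cell cycle genes (log2 difference, horizontal axis; lines, 95% intervals; filled points, adjusted p under 0.05) in the 3 genotypes, with n = 3 arrays per group. Mcm5 and Mcm6 lie between -2.84 and -1.36 in all 3 genotypes, and Rrm2 lies to the right of 0, at 0.69, 3.19 and 2.38.

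In WT mice Mcm6 was lower with CPA (-2.84 ± 0.52, 7.18-fold, adjusted p = 0.00342), and so was Mcm5 (-2.77 ± 0.54, 6.8-fold, adjusted p = 0.00618). These lay on both sides of corn oil: as given above, the DCB arrays lay over and the CPA arrays under the controls. Mcm7 (-0.88 ± 0.21, adjusted p = 0.0294), Mcm2 (-0.56 ± 0.14, adjusted p = 0.0318) and Rrm1 (-0.80 ± 0.21, adjusted p = 0.0445) were also lower. Mcm6 passed whichever array was left out (adjusted p up to 0.0476), and Mcm5 did not pass without DCB replicate 1 (-2.22, adjusted p = 0.0794). Each of these genes had 3 probe sets, and the values come from the one with the highest mean. Over all alternatives run, the WT difference lay between -3.40 and -2.05 for Mcm6 and between -3.26 and -1.25 for Mcm5.

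The 3 smaller calls in WT mice depended on single arrays. Mcm2 was lost without any one of the 6 arrays (adjusted p = 0.055 to 0.14). Mcm7 was lost without CPA replicate 1 or 3 or DCB replicate 1 or 3 (adjusted p = 0.121, 0.141, 0.262 and 0.0693; -0.83, -0.81, -0.62 and -0.89). Rrm1 was lost without any of the 6 but DCB replicate 2 (adjusted p = 0.082 to 0.274). Without DCB replicate 2, the lowest array of that group for most of the genes, Pcna (-0.78, adjusted p = 0.0435) and Top2a (-1.47, adjusted p = 0.0335) passed as well.

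For hCAR/hPXR mice the genes lower with CPA were Mcm6 (-2.48 ± 0.52, adjusted p = 0.0041), Mcm5 (-2.28 ± 0.54, adjusted p = 0.00967) and Cdt1 (-1.51 ± 0.34, adjusted p = 0.006), and none of these was lost without any single array. With only these 2 groups in the fit their adjusted p was 0.116, 0.152 and 0.124. The size of the first 2 depended on DCB replicate 3, without which they were -3.21 and -2.97, and on DCB replicate 1, without which they were -1.96 and -1.64. Over all alternatives run, Mcm6 lay between -3.21 and -1.68 and Mcm5 between -2.97 and -1.17. Mcm2 (-0.44 ± 0.14, adjusted p = 0.0489) was lost without any one of the 6 arrays (adjusted p = 0.0504 to 0.184). Plk1 (-0.51 ± 0.15, adjusted p = 0.0386) passed without DCB replicate 1 and was lost without any other of the 6 (adjusted p = 0.053 to 0.197). Mcm4 (-1.2 ± 0.39, adjusted p = 0.0545) passed without DCB replicate 2 (-1.41, adjusted p = 0.0488) or DCB replicate 3 (-1.56, adjusted p = 0.0265), and Mcm7 without DCB replicate 3 (-0.74, adjusted p = 0.0419).

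Rrm2 was higher with CPA than with DCB by 3.19 ± 0.55 in hCAR/hPXR mice (9.1-fold, adjusted p = 0.000753), and it passed whichever array was left out. As the arrays above show, CPA stood over and DCB under corn oil. In CARko/PXRko mice the difference was 2.38 ± 0.55 (adjusted p = 0.0115) with overlapping arrays, and it was lost without CPA replicate 2 (1.63, adjusted p = 0.0743). In WT mice it was 0.69 ± 0.55 (adjusted p = 0.645; 95% interval -0.45 to 1.83).

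In CARko/PXRko mice, where both compounds were labelled 3 days, Ccnd1 (-2.81 ± 0.67, adjusted p = 0.0138) and Cdt1 (-1.24 ± 0.34, adjusted p = 0.0273) were lower with CPA. Mcm5 and Mcm6 differed by -1.36 ± 0.54 and -1.36 ± 0.52, with no overlap of arrays, and missed the threshold (adjusted p = 0.113 and 0.102). Without the arrays with muscle transcripts, which leave 1 DCB array assumed to vary like the other groups, 0 genes passed: Ccnd1 gave -2.50 (adjusted p = 0.153), Cdt1 -1.19 (adjusted p = 0.217) and Rrm2 1.49 (adjusted p = 0.377). Ccnd1 was lost also without DCB replicate 3 alone (-2.25, adjusted p = 0.0779). Cdt1 was lost without CPA replicate 1 (-1.28, adjusted p = 0.0618), CPA replicate 2 (-0.92, adjusted p = 0.136), DCB replicate 2 (-1.24, adjusted p = 0.0526) or DCB replicate 3 (-1.21, adjusted p = 0.0762). As the mean of its probe sets, Cdt1 gave -0.50 (adjusted p = 0.106).

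The licensing and helicase genes had 8 of 8 negative differences between CPA and DCB in WT and in hCAR/hPXR mice and 7 of 8 in CARko/PXRko mice, with medians of -0.87, -0.85 and -0.73 against 0, -0.01 and -0.03 over all genes. The 6 tested spindle, checkpoint and chromosome genes had medians of -0.36, -0.22 and 0.09, and 0 passed. Other G1/S and replication genes, a list of 45 that includes the other D cyclins, their kinases and E2F factors and of which 39 were tested, gave 5 lower in WT mice: Prim1 (-1.39 ± 0.31) and Pola1 (-0.93 ± 0.21) of the primase and polymerase alpha complex, Lig1 (-1.11 ± 0.27), the ligase that joins Okazaki fragments, Gins1 and Timeless. In hCAR/hPXR mice 7 were lower, among them Rfc3 (-0.94 ± 0.21, adjusted p = 0.006), a clamp loader subunit, and Hells (-0.60 ± 0.14, adjusted p = 0.00795), and E2f7, a repressor of E2F targets, was higher (0.90 ± 0.22, adjusted p = 0.0105). In CARko/PXRko mice 4 were lower and 2 higher; Ccnd3 (-0.90 ± 0.12, adjusted p = 0.000151) and Ccnd2 (-2.18 ± 0.40, adjusted p = 0.00238), the other D cyclins, were among the lower ones. With the muscle-bearing arrays left out, 0 of the 39 passed there (-0.63, adjusted p = 0.0576, for Ccnd3 and -1.61, adjusted p = 0.0813, for Ccnd2), and the licensing and helicase median was -0.75 with 7 of 8 negative.

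Against corn oil, the same G1/S and replication list gave 0 of 39 with DCB in WT mice and 0 with CPA in WT mice (4 and 7 had an unadjusted p under 0.05 in limma). With DCB, 1 was lower in hCAR/hPXR mice (Mcm10, an initiation factor, -1.50 ± 0.36, adjusted p = 0.0127) and 0 passed in CARko/PXRko mice (4 unadjusted). With CPA in hCAR/hPXR mice Mcm10 (-1.65 ± 0.36, adjusted p = 0.008) and Pola1 (-0.85 ± 0.21, adjusted p = 0.0162) were lower and E2f7 higher (0.81 ± 0.22, adjusted p = 0.0302). In CPA-treated CARko/PXRko mice 7 were lower and 1 higher. Mcm10 (-2.30 ± 0.36, adjusted p = 0.000434), Dbf4 (-1.24 ± 0.31, adjusted p = 0.0228), the activator of the kinase that fires origins, Cdk6 (-0.99 ± 0.25, adjusted p = 0.0247) and E2f8 (-1.38 ± 0.37, adjusted p = 0.0313) were lower, and Brca1 was higher (1.26 ± 0.26, adjusted p = 0.0054). These 5 also passed without the arrays with muscle transcripts, where 5 were lower and 1 higher.

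Other mitotic genes, 34 tested of a list of 50, gave 0 with either compound in WT mice and 0 with DCB in CARko/PXRko mice (0, 4 and 0 unadjusted, limma, for WT DCB, WT CPA and CARko/PXRko DCB). In DCB-treated hCAR/hPXR mice Cenpa, the centromere histone (-1.21 ± 0.26, adjusted p = 0.0068), and Spc25 (-1.44 ± 0.39, adjusted p = 0.0234) of the NDC80 complex were lower, and Spc24 of the same complex was higher (1.11 ± 0.30, adjusted p = 0.026). Cenpa (-1.12 ± 0.26, adjusted p = 0.0133) and Spc25 (-1.62 ± 0.39, adjusted p = 0.0142) were lower with CPA too in these mice; both comparisons share the corn oil arrays. In CPA-treated CARko/PXRko mice 3 were lower and 2 higher, led by Ccnf (cyclin F, 1.33 ± 0.30, adjusted p = 0.01) and Spc25 (-1.41 ± 0.39, adjusted p = 0.0327). Without the arrays with muscle transcripts, 0 were lower and 1 higher there (Ccnf, 0.99, adjusted p = 0.00886), and Spc25 gave -1.32 (adjusted p = 0.0978). In that fit, CPA minus DCB in hCAR/hPXR mice gave Ccnf higher (1.03 ± 0.19, adjusted p = 0.00153, limma). Spc24 was lower there (-1.27 ± 0.29, adjusted p = 0.00762).

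Of 14 tested cell cycle inhibitors, Cdkn1a, which encodes p21, was higher with CPA in CARko/PXRko mice by 2.69 ± 0.59 (6.44-fold, adjusted p = 0.00807), and by 3.11 without the arrays with muscle transcripts (adjusted p = 0.0089). The differences in hCAR/hPXR and WT mice were 1.90 ± 0.59 (adjusted p = 0.0674) and 0.48 ± 0.59 (adjusted p = 0.918). Cdkn1b, which encodes p27, was lower with DCB in hCAR/hPXR mice (-0.58 ± 0.17, adjusted p = 0.0429). No other inhibitor passed in the 6 comparisons with corn oil. Inhibitors also differed between the compounds in the fit without the arrays with muscle transcripts. No WT or hCAR/hPXR array was left out of that fit. For those mice only the shared estimate of spread, and the p-values resting on it, differ from the fit of all 30 arrays. This holds for Ccnf and Spc24 above as well, and adjusted p-values from the fit of all 30 arrays are not given for these genes. For CPA minus DCB, Rbl1 was lower in WT mice (-1.63 ± 0.38, adjusted p = 0.0201, limma). In hCAR/hPXR mice Wee1 was lower (-0.97 ± 0.26, adjusted p = 0.0204) and Rb1 higher (0.83 ± 0.18, adjusted p = 0.00673). With 1 DCB array left in CARko/PXRko mice, only effect sizes are given, 2.31 for Ccng2 and -1.42 for Wee1, and neither is counted as a call.

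No dependence on the receptors passed the test. The effects of DCB in hCAR/hPXR and CARko/PXRko mice were set against that in WT mice and against each other, and the same was done for CPA. In each of these 6 comparisons 0 of the 26 cell cycle genes passed. The background was 0%, 0% and 0.00782% of all genes for DCB (hCAR/hPXR minus WT, CARko/PXRko minus WT, hCAR/hPXR minus CARko/PXRko) and 0.0625%, 0.0703% and 0% for CPA, and 3, 3, 1, 4, 2 and 2 of the 26 had an unadjusted p under 0.05 in limma. For Mcm6 the DCB effect in CARko/PXRko mice minus that in WT mice was -1.25 ± 0.74 (95% interval -2.77 to 0.27), and for Mcm5 it was -1.23 ± 0.77 (-2.81 to 0.35). Without the arrays with muscle transcripts these were -0.45 (-2.32 to 1.42) and -0.26 (-2.17 to 1.66). For Ccnd1 the CPA effect in CARko/PXRko mice minus that in WT mice was -0.95 ± 0.95 (-2.91 to 1.01), and -0.17 (-1.98 to 1.65) without those arrays. Rrm2 with CPA differed between hCAR/hPXR and WT mice by 1.73 ± 0.78 (0.13 to 3.34, adjusted p = 1). These intervals are wide, and a missed threshold does not show that the genotypes respond alike.

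Under corn oil, none of the 26 genes passed between genotypes by limma. hCAR/hPXR, CARko/PXRko and PXRko mice against WT, and CARko/PXRko against PXRko, each gave 0 (0.0234%, 0.0391%, 0.0234% and 0.0156% of all genes tested passed), and 0 of the 26 had an unadjusted p under 0.05 in any of the 4. PXRko mice gave Ccnd1 at 8.65, 9.54 and 8.54, Mcm5 at 6.34, 7.15 and 6.49, Mcm6 at 6.61, 7.38 and 6.94 and Rrm2 at 7.47, 7.82 and 7.32. Cdt1 stood at 7.41, 7.68 and 6.92 and Mki67 at 5.31, 5.79 and 5.33 in the same arrays. Each of these overlapped the WT corn oil arrays. The other genes named above with every array gave, in PXRko mice, Mcm2 6.45, 6.73 and 6.73, Mcm3 5.42, 5.75 and 5.3, Mcm7 8.61, 8.65 and 8.61 and Pcna 10.21, 10.17 and 10.42. They also gave E2f1 6.25, 6.35 and 6.26, Tk1 8.93, 8.51 and 8.51, Cdk1 6.84, 6.81 and 6.98, Ccna2 5.13, 6.11 and 5.47, Plk1 5.15, 5.25 and 5.08, Foxm1 6.52, 6.63 and 6.65 and Cdc20 6.85, 6.76 and 7.09.

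The 12 genes that were not tested stayed near background in nearly every array. Cdc6, the partner of CDT1, ran from 3.22 to 4.28, with its highest array in DCB-treated WT mice. Aurkb and Bub1 ran from 3.38 to 4.52 and from 3.54 to 4.48, Kif11 and Nusap1 from 3.99 to 5.02 and from 4.12 to 5.20, and Cenpe, Cenpf and Tpx2 from 4.08 to 5.05, 4.30 to 5.03 and 4.90 to 5.84. Birc5, Kif20a and Ccnb2 reached higher values on single arrays, as given above. For these genes a change below the array's background could not be seen.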

How the data were processed

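RNA from the livers was hybridised to Affymetrix mouse genome arrays, 30 in all. The deposited values are on a log2 scale after RMA, per the submitters' processing notes; its version and options were not given in the sources used here. RMA had already corrected background and normalised the arrays together, which compresses differences of dim probe sets. Of 45037 probe sets, 34945 named 1 gene, 932 several and 9160 none in the platform annotation, and 34741 of their gene IDs were in the RefSeq table. With limma 3.58.1 (R 4.3.3), one mean per group was fitted to the 30 arrays, and 19 comparisons were drawn from it, each adjusted by Benjamini-Hochberg with a threshold of 0.05. The fit was tested on simulated data. Genes given with every array are the 12 with the smallest adjusted p over the 6 treatment effects and the 2 of highest mean in each role. Of other cell cycle lists, called genes are named by adjusted p, up to 5 per list and comparison. The genes and lists were chosen with earlier results of these data known. Alternatives were other filters on dim genes, scalings, probe set means, variance settings, fits on the compared groups alone, a replicate block, and leaving out arrays. The number of arrays limits the precision. The design text gives 5 mice per group.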

Additional observations from a re-analysis of the deposited data

How the results depend on the processing

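None of the 18 calls of single genes changed sign under the alternatives run; leaving out 1 array turned the sign of 47 of the 156 treatment effects and 20 of the 78 CPA minus DCB differences, none of them a call. Of the 18 calls, 2 passed under all alternatives, 16 were lost under at least 1, and 6 passed whichever array was left out. Leaving out 1 array at a time, the number of genes that passed ranged from 0 to 1 for DCB in WT mice, 0 to 1 for DCB in hCAR/hPXR mice, 1 to 4 for CPA in hCAR/hPXR mice and 1 to 3 for CPA in CARko/PXRko mice. For CPA minus DCB the WT range was 1 to 6, the hCAR/hPXR range 4 to 6 and the CARko/PXRko range 1 to 5. With only the compared groups in the fit, CPA in WT mice gave 3 (Ccnd1, Mcm5 and Mcm6), CPA in CARko/PXRko mice 0, and CPA minus DCB 1 (hCAR/hPXR) and 0 (CARko/PXRko); there Mki67 in hCAR/hPXR mice had an adjusted p of 0.164 and Ccnd1 with CPA in CARko/PXRko mice one of 0.0563 (limma). CPA in WT mice gave 1 (Ccnd1) with the filter at the 75th percentile, with probe sets of a gene averaged, or without the arrays with muscle transcripts. Without those arrays DCB in hCAR/hPXR mice gave 1, and CPA minus DCB in CARko/PXRko mice 0, against 5 after a repeated quantile normalization. The median difference of the tested genes with CPA was -0.30 in WT mice at the 75th percentile filter and -0.27 after quantile normalization (main value -0.18; -0.27 to -0.12 leaving out 1 array), and -0.45 in CARko/PXRko mice at that filter (main value -0.17). The cause of these shifts was not tested, except that the 75th percentile filter keeps 11 of the 26 genes. With the replicate block, CPA minus DCB gave 4, 5 and 3 genes in WT, hCAR/hPXR and CARko/PXRko mice, losing Rrm1 (adjusted p = 0.0554) and Mcm2 in hCAR/hPXR mice (adjusted p = 0.0552); it changed no other count. Replicate numbers did not pair the arrays: 4 of 18 correlations of same-numbered deviations were over 0.1 (range -0.59 to 0.57). Signal over background limits the mitotic genes most.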
